A study of Mus musculus with 8 samples.

Results

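Partial epithelial-mesenchymal transition (partial EMT) and invasion genes were followed as a list of 47 genes among the 32285 genes counted. Members were found by their gene symbol, and all 47 were present. The epithelium came from the tongues of adult littermates, 15 days after transgene induction by tamoxifen injected into the tongue and doxycycline chow, and single viable cells were counted by 3' droplet sequencing of unique molecular identifiers (UMIs). Control mice (N) carried Krt14-CreERT and LSL-rtTA, a Cre recombinase driven by the promoter of a basal keratin gene and a silenced doxycycline-responsive activator, which all other groups carried as well. E mice also carried tetON_E6-E7, the oncogenes of a human papillomavirus, Y mice carried tetON_YAP1S127A, a YAP1 allele that escapes Hippo inhibition and so stays active as a coactivator, and EY mice carried both. Because Krt14 is expressed in basal cells, transgenes could be switched on only in these cells and their progeny. Each group had 2 libraries, named N1, N2 and so on, and N2 may pool animals, since its title holds more than 1 animal number.

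In a full EMT, epithelial cells dissolve their junctions, lose keratin filaments and take on a spindle shape under the transcription factors SNAI, TWIST and ZEB. In partial EMT, described at the leading edge of oral and other squamous tumors, cells keep cadherin, keratin and desmosome genes while they switch on genes for matrix proteins, integrins, proteases and the actin cytoskeleton. TGF-beta, activin and the YAP-TEAD complex are known inducers of many of these genes. Several are also expressed by fibroblasts, macrophages and wounded keratinocytes.

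Epithelial cells were taken as cells with no Ptprc UMI in which 5 keratin genes (Krt5, Krt14, Krt15, Krt13 and Krt6a) made up at least 0.5% of UMIs. Of 42550 cells, 25199 passed the filters on genes, UMIs and mitochondrial share, and 12957 were epithelial by this rule, from 170 in EY1 and 415 in N2 to 4055 in E1. Their summed UMIs ran from 2454816 (EY1) to 55154619 (E1). All 9 epithelial markers were present in every library. Yap1 was at 32.8 to 47.8 UMIs per 1000000 in N and E libraries and at 165.6 to 451.8 in Y and EY libraries. EY1 stood apart: a list of 9 myeloid markers summed to 197.6 per 1000000 in its epithelial cells, against 17.5 to 44.1 in the other libraries, and the upper limits on genes and UMIs had removed 311 of its epithelial cells, more than were kept. These limits also removed 326 cells in N2 and 391 in E2, where 415 and 553 were kept, but 74 in N1 and 130 in E1. In Y1, Y2 and EY2 they removed 608, 587 and 435, fewer than were kept.

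Levels are given below as CPM, the UMIs of a gene per 1000000 UMIs of the epithelial cells of a library, scaled by the trimmed mean of M-values. Fold changes are on the log2 scale with their standard errors (SE), from edgeR's quasi-likelihood test on UMIs summed per library. A gene was called when its Benjamini-Hochberg adjusted p over all genes tested was under 0.05. As cells were summed, a change in the number of cells that express a gene and a change in its RNA per cell cannot be told apart.

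Of the 47 members, 46 were tested, and 12 were called in EY against N. This is 26.1% of those tested, against 18.8% of all 13555 genes. Among them, 10 were higher in EY, compared with 9.31% of all genes, and 2 were lower, compared with 9.5%. The median log2 fold change of the members was 0.32, and that of all genes was −0.05. By role, the members called higher were 3 surface genes, 3 actin genes, and 1 each among matrix, secreted, protease and coagulation, and caveolae and membrane genes. Those called lower were 1 surface gene and 1 collagen maturation gene. Group medians ran from −1.02 (matrix) to 1.05 (actin), and the groups were not tested against each other.

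**Figure D1:**
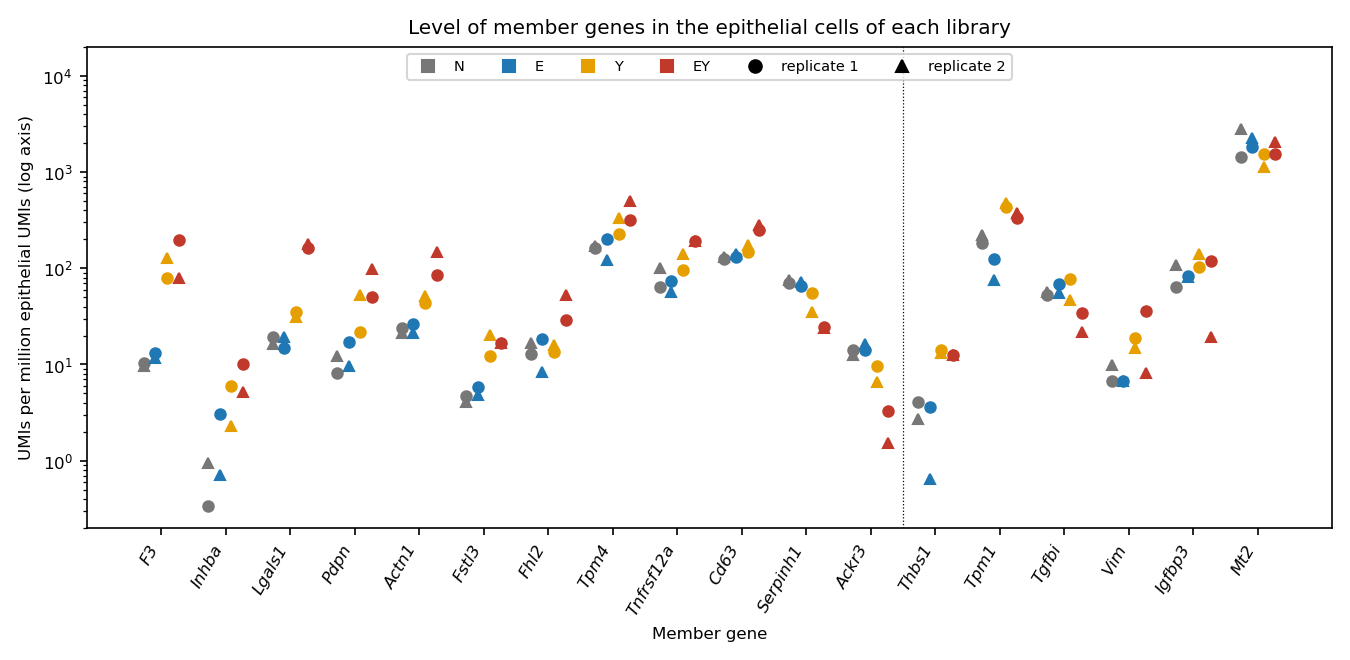
Level of 18 members in epithelial cells of each library, in UMIs per 1000000 on a log axis; colors mark groups and symbols mark the replicate. The 12 genes left of the dotted line were called in EY against N, ordered by log2 fold change, and Lgals1 sat at 162.8 and 181.0 in EY against 14.7 to 35.3 elsewhere.

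F3 and Inhba had the largest log2 fold changes, 3.77 each. F3 encodes the tissue factor that starts coagulation (ENSMUSG00000028128, chromosome 3, 121723537 to 121735048, plus strand, GRCm38). Its levels were 10.4 and 9.64 CPM in N, 13.1 and 11.6 in E, 79.7 and 127.9 in Y, and 199.0 and 79.9 in EY, where the first value of each pair is replicate 1. The libraries with YAP1S127A lay above those without it, and Y and EY overlapped. The log2 fold change between EY and N was 3.77 (SE 0.45) with an edgeR adjusted p of 0.00799, and between Y and N it was 3.36 (SE 0.44, edgeR adjusted p 0.0380). F3 and the activin antagonist Fstl3 were the 2 members called in Y against N, where 0.457% of all genes were called, and 0.384% were called higher. Fstl3 was at 4.70 and 4.05 CPM in N, 12.4 and 20.05 in Y and 16.6 and 16.8 in EY. It rose by 1.87 in Y (SE 0.28, adjusted p 0.0457) and by 1.92 in EY (SE 0.28, adjusted p 0.0110) on the log2 scale by the same edgeR test. Leaving out N1, N2, E1, E2 or Y2 reduced the 2 calls in Y against N to 0, and leaving out EY1 to 1, while 0 to 0.105% of all genes were called in these fits.

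Promoters of the members were read for the core of the TEAD motif, GGAATG, and for the AP-1 motif TGANTCA, on both strands. Each window held the 300 bases from 250 before to 50 after a start site in RefSeq (GRCm38.p6). The table held 51 such windows for 39 of the 47 members. GGAATG was found in 2 of the 51, or 3.92%, against 14.7% of 32851 windows of all genes, and TGANTCA in 4, or 7.84%, against 7.81%. Of the 11 members with a window that were called higher with YAP1S127A, each motif was found in 1 (9.09%). Among all genes, 16.6% held GGAATG and 8.97% held TGANTCA. The windows of F3 and Tpm1, the 2 such members with a motif, are shown with motif bases in capitals. F3 lies on the plus strand at chr3:121723287-121723586 and holds 2 AP-1 motifs, and Tpm1, the tropomyosin gene described below, lies on the minus strand at chr9:67049164-67049463.
F3: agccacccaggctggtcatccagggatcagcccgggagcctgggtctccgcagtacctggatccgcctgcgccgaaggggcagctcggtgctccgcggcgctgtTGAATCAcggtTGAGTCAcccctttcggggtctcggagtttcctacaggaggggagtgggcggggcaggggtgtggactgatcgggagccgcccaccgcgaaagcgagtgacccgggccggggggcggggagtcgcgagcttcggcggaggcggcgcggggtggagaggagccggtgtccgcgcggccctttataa
Tpm1: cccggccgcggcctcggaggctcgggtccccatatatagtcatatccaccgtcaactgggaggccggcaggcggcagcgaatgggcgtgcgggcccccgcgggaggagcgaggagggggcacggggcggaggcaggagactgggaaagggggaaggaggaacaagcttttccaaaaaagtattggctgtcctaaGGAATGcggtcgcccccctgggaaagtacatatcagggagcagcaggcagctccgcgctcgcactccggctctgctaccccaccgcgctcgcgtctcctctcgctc
The 2 motifs of F3 begin 146 and 135 bases before the start site, and the motif of Tpm1 begins 56 bases before it. A match is a run of letters, and binding was not measured here.

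Lgals1 encodes galectin-1, a secreted lectin that binds matrix and surface glycans (chromosome 15, 78926725 to 78930465, plus strand). It was at 19.4 and 16.4 CPM in N, 14.7 and 19.3 in E, 35.3 and 31.5 in Y, and 162.8 and 181.0 in EY. Both EY libraries lay far above all others, and Y lay above N and E. The log2 fold change was 3.26 in EY against N (SE 0.19, edgeR adjusted p 0.00421). Lgals1 was also the 1 member called in EY against Y (2.37, SE 0.18, adjusted p 0.0296), where 0.0443% of all genes were called, and 0.0221% were called higher. T and natural killer (T/NK) cells hold much more of it (2778 CPM), as do fibroblasts (1857 CPM) and myeloid cells (635 CPM). In epithelial cells the 5 T/NK markers summed to 17.9 and 31.1 per 1000000 in EY and to 4.2 to 21.1 elsewhere, against 5131 in T/NK cells. Most of the EY sums was Trbc2, at 14.3 and 27.5, against 2.75 to 11.1 elsewhere. Cd3d, Cd3e, Cd3g and Nkg7 were each highest in Y1. Without cells that held more than 2 UMIs of other cell types the log2 fold change in EY against N was 3.62. That limit counted UMIs of the fibroblast marker Dcn. It removed 1842 of 3447 cells in N1, 250 of 415 in N2, 56 of 170 in EY1 and 340 of 2027 in EY2. The call in EY against Y was lost without Y1, Y2 or EY2, and also without upper limits on genes and UMIs, where the log2 fold change was 1.21 (SE 0.43, edgeR adjusted p 0.137). Without EY1, 10 members and 10.2% of all genes were called there.

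Pdpn encodes podoplanin, a membrane glycoprotein at the invasive front of squamous tumors (chromosome 4, 143267431 to 143299564, minus strand). It was at 8.13 and 12.4 CPM in N, 17.1 and 9.56 in E, 22.0 and 53.2 in Y, and 50.8 and 98.0 in EY. The EY libraries lay above N and E, and Y2 lay above EY1. It rose by 2.92 in EY against N (SE 0.54, edgeR adjusted p 0.0179), whereas the difference of 1.90 in Y against N was not called (SE 0.52, adjusted p 0.186). After thinning every cell to 2000 UMIs, a Pdpn UMI was found in 1.63% and 2.41% of epithelial cells in N, 3.48% and 2.53% in E, 4.50% and 9.99% in Y, and 9.47% and 15.8% in EY. Without thinning these shares were 9.92% and 16.1% in N and 34.1% and 65.4% in EY. T/NK cells, taken as a class that should lack it, gave 0 to 3.68% after thinning, with the highest share in EY2.

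Among surface genes, Tnfrsf12a, the receptor of the cytokine TWEAK, was at 63.4 and 101.1 CPM in N, 73.2 and 56.8 in E, 95.7 and 139.2 in Y, and 190.0 and 192.5 in EY (log2 fold change against N 1.22, SE 0.27, edgeR adjusted p 0.0265). The tetraspanin gene Cd63 was at 124.9 and 131.0 in N and 248.5 and 283.2 in EY (1.06, SE 0.15, adjusted p 0.00957). For both, EY lay above every other library. Other receptors did not follow. The fibronectin receptor subunit Itga5 stayed between 1.11 and 2.12 CPM in all libraries, and Itgb6, a subunit of the integrin that activates latent TGF-beta, was at 4.94 and 5.60 in N and 6.90 and 10.7 in EY (0.82, SE 0.36, edgeR adjusted p 0.137).

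Within the actin group 3 of 8 tested genes were called in EY against N, all higher (9.31% of all genes were), and the group median was 1.05. Actn1, the actin crosslinker alpha-actinin 1, was at 23.8 and 21.2 CPM in N, 26.3 and 21.0 in E, 43.4 and 51.2 in Y, and 86.1 and 147.0 in EY. The order of the groups was the same as for Lgals1, with Y above N and E and EY above Y. The log2 fold change was 2.38 in EY (SE 0.27, edgeR adjusted p 0.00760) and 1.07 in Y, where it was not called (SE 0.26, adjusted p 0.144). The tropomyosin gene Tpm4 rose by 1.29 (SE 0.32, adjusted p 0.0334), from 162.1 and 171.8 CPM in N to 317.9 and 495.8 in EY. Fhl2, a LIM protein of focal adhesions, rose by 1.52 (SE 0.41, adjusted p 0.0423), from 12.8 and 16.8 to 29.2 and 52.8, while Y, at 13.6 and 16.0, lay within the range of N and E.

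Tpm1, another tropomyosin, behaved differently from these in the E mice. It was at 183.8 and 224.1 CPM in N, 124.2 and 75.4 in E, 435.0 and 480.3 in Y, and 335.8 and 377.5 in EY. Both E libraries lay below N, both Y libraries lay highest, and no 2 groups overlapped. In EY against N the difference of 0.81 just missed the threshold (SE 0.24, edgeR adjusted p 0.0531), whereas in EY against E it was called at 1.84 (SE 0.25, adjusted p 0.0122). In E against N it was −1.03 (SE 0.24, adjusted p 0.379).

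Secreted signals included Inhba, the subunit of activin A (chromosome 13, 16011851 to 16031621, plus strand). Its level was low, at 0.34 and 0.95 CPM in N, 3.03 and 0.72 in E, 5.97 and 2.31 in Y, and 10.2 and 5.13 in EY, and it rested on 17 and 8 UMIs in N and 25 and 181 in EY. The EY libraries lay above N, and EY2 lay below Y1. The log2 fold change in EY against N was 3.77 (SE 0.92, edgeR adjusted p 0.0332). Myeloid cells held 603 CPM of Inhba, and EY1 was the library with the highest summed level of myeloid markers, mostly Lyz2 and Cd14. These markers summed to 197.6 in EY1 and 19.4 in EY2, against 11916 in myeloid cells. The log2 fold change was 3.51 without cells that held UMIs of other cell types, a limit that removed a larger share of N than of EY cells. It was 3.32 without EY1. How much of the Inhba in the EY libraries came from myeloid RNA was not tested.

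The falling members were 2. Serpinh1, the collagen chaperone HSP47 (chromosome 7, 99345376 to 99353239, minus strand), was at 71.1 and 75.2 CPM in N, 64.9 and 72.7 in E, 55.4 and 35.5 in Y, and 24.8 and 24.2 in EY. Between N and EY it fell by 1.58 on the log2 scale (SE 0.22, edgeR adjusted p 0.00975). Every EY library lay below all others. Ackr3, a scavenging receptor for CXCL12 (chromosome 1, 90203980 to 90216751, plus strand), was at 14.3 and 12.5 CPM in N, 14.3 and 16.3 in E, 9.66 and 6.53 in Y, and 3.25 and 1.53 in EY. Its log2 fold change was −2.82 (SE 0.38, adjusted p 0.00899), with 8 UMIs in EY1 and 54 in EY2. Fibroblasts held more of both genes, 1161 CPM of Serpinh1 and 253.6 of Ackr3. The 6 fibroblast markers summed to 1105 and 1227 per 1000000 in epithelial cells of N and to 253.8 and 28.3 in EY, but nearly all of this was Dcn, at 1099 and 1223 in N and 251.8 and 27.0 in EY. The collagen markers were low and mostly lower in EY as well. Col3a1 was at 2.79 and 2.06 in N and 0 and 0.324 in EY, against 14119 in fibroblasts, and Col1a2 at 1.28 and 0.800 in N and 0 and 0.0810 in EY. Col1a1 was at 1.14 and 0.915 in N and 2.04 and 0.837 in EY. The part of fibroblast RNA in the lower levels of Serpinh1 and Ackr3 was not tested.

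Other members had lower values in EY without being called. Tgfbi, a matrix protein induced by TGF-beta and a marker of partial EMT in oral tumors, was at 52.4 and 57.3 CPM in N, 69.5 and 55.3 in E, 78.3 and 47.3 in Y, and 34.1 and 21.7 in EY. The EY minus N difference was −1.02 (SE 0.30, edgeR adjusted p 0.0533). Tgfbi was called lower in EY against E (−1.21, SE 0.30, adjusted p 0.0378). The adhesion gene Cdh13 was at 41.1 and 48.0 in N and 27.6 and 9.47 in EY (−1.42, SE 0.43, adjusted p 0.0552). Thbs1, the matricellular thrombospondin 1, went the other way, from 4.09 and 2.74 CPM in N to 14.0 and 13.0 in Y and 12.6 and 12.5 in EY (1.83 in EY against N, SE 0.59, adjusted p 0.0659).

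For some members the EY libraries differed too much from each other to be read as a group. The growth factor binding protein gene Igfbp3 was at 120.2 CPM in EY1 and 19.2 in EY2, tenascin C (Tnc) at 9.34 and 1.28, and the protease inhibitor Serpine2 at 19.9 and 0.77. Vim, the intermediate filament gene of mesenchymal cells, was at 6.73 and 9.88 CPM in N, 6.75 and 6.69 in E, 18.6 and 14.9 in Y, and 36.1 and 8.14 in EY. Its log2 fold change in EY against N was 1.31 (SE 0.61, edgeR adjusted p 0.157), and it was 0.03 without EY1 and 2.14 without EY2. Myeloid cells held 3975 CPM of Vim and fibroblasts 3575. The share of these cells in the Vim of EY1 was not tested.

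The remaining tested members were not called in EY against N. Fstl1 and Pthlh, described below, were at −1.86 and 1.39 on the log2 scale, and the others lay between −1.06 (Ltbp1, a binding protein of latent TGF-beta) and 1.12 (the serine protease gene Prss23). Among them, the guidance signal gene Sema3c was at 34.4 and 29.9 CPM in N, 26.3 and 38.7 in E, 55.5 and 90.5 in Y, and 69.4 and 32.8 in EY, so that Y lay above N and E while the EY libraries disagreed. Calu, a calcium-binding protein of the secretory pathway, was at 40.6 and 44.4 in N and 55.6 and 56.7 in EY (0.41, SE 0.14, edgeR adjusted p 0.0741). Igfbp7, Myh9 (the heavy chain of nonmuscle myosin), App and Anxa5 were all at 129.5 CPM or more in every library, and their log2 fold changes in EY against N lay between −0.31 and 0.08. The collagen-modifying genes P4ha2 and Plod2 stayed between 6.33 and 20.6 CPM. For Ptk7, Mpzl1, Emp3, Slc39a14, Pdlim7, Frmd6, Cavin3 and Gsdme the log2 fold changes lay between −0.99 (Slc39a14) and 0.89 (Gsdme).

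The smooth muscle gene Tagln had at most 14 UMIs in a library and was not tested. The urokinase gene Plau, a protease of invading cells, stayed between 3.65 and 6.06 CPM. Mt2, a metal-binding metallothionein, was the most abundant member, at 1447 and 2791 CPM in N and 1530 and 2041 in EY, and whether reads were shared with the similar Mt1 was not analysed here.

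**Figure D2:**
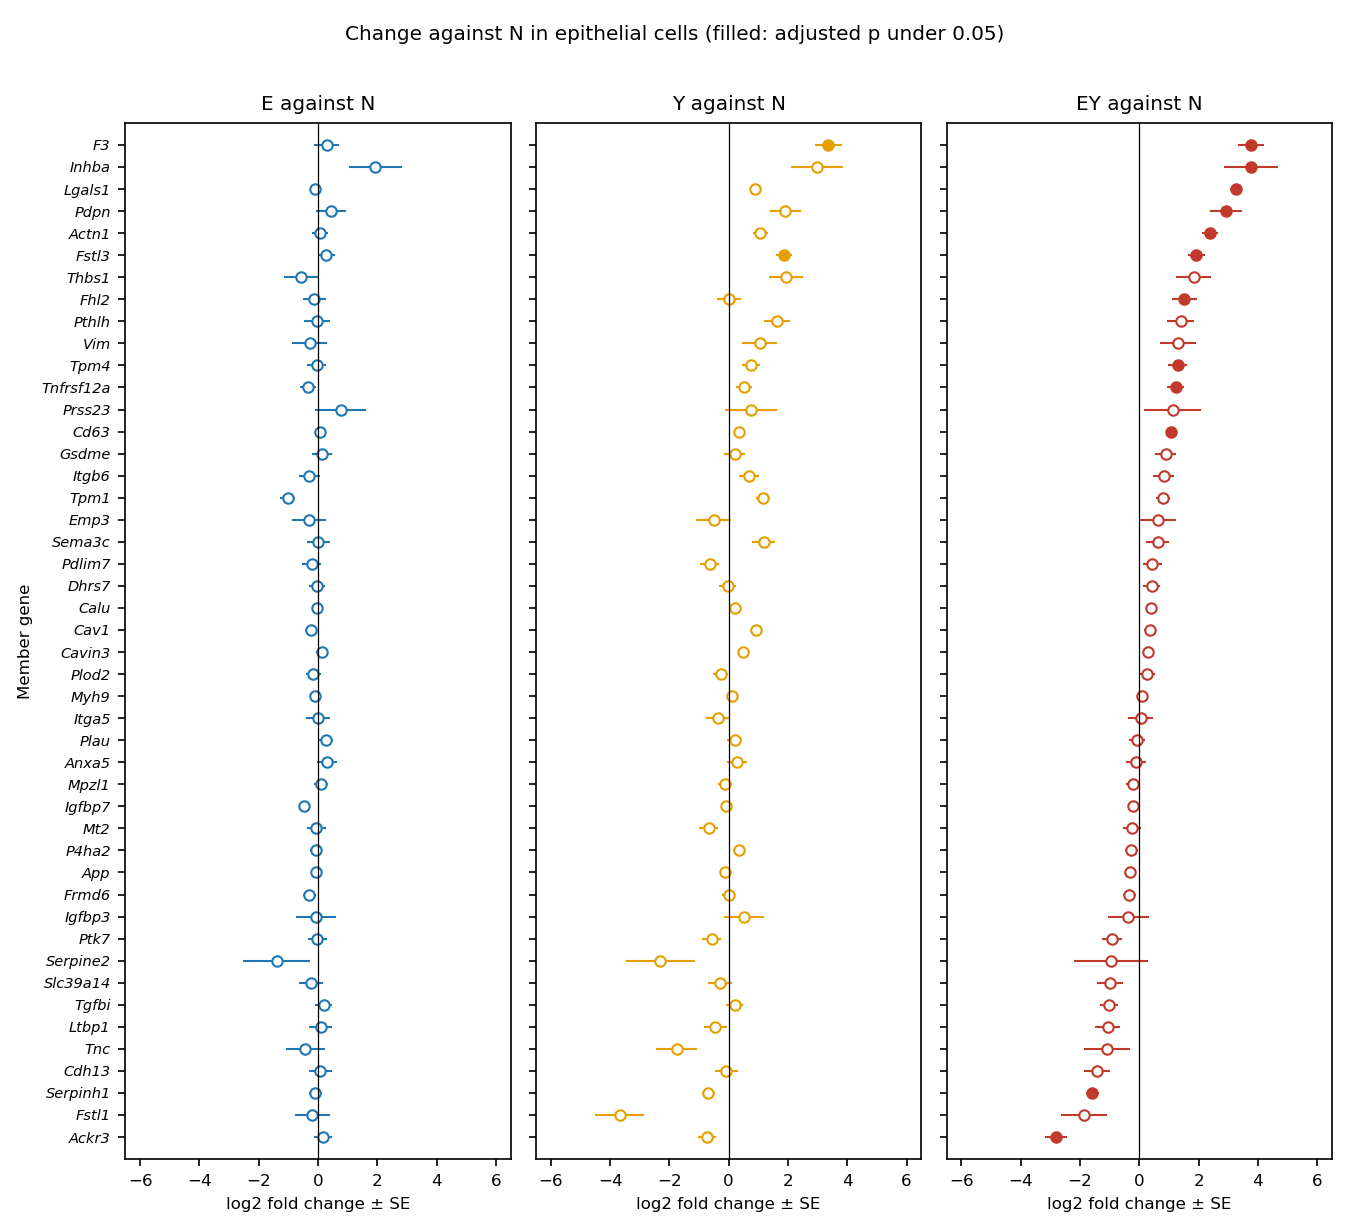
Log2 fold change with its SE of the 46 tested members in E, Y and EY against N, in rows ordered by EY against N; filled points have an edgeR adjusted p under 0.05. The 3 comparisons share the N libraries. The number of filled points is 0 for E, 2 for Y and 12 for EY.

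In E against N no member was called by edgeR, against 0.243% of all genes, with 2 members at an unadjusted p under 0.05, as had 3.73% of all genes. DESeq2 called 1, Tpm1, lower in E, and 0.966% of all genes. The median of the members was −0.06 and that of all genes −0.01. EY against E, which shares the EY libraries with the contrasts above, called 14 members against 16.4% of all genes, 11 higher (7.97% of all genes) and 3 lower (8.46%). The lower ones were Serpinh1, Ackr3 and Tgfbi. The 14 calls fell to 5 without E1, 1 without E2 and 2 without EY2, where 1.41%, 0.021% and 0.0431% of all genes were called.

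Across all 8 libraries, each transgene was tested with the other held fixed, in a model without interaction. For YAP1S127A 15 of 46 members were called, against 8.98% of all genes. Of these 13 were higher, compared with 5.26% of all genes, and 2 were lower, compared with 3.72%. The median was 0.18 for the members and −0.03 for all genes. For 13 members all 4 libraries with YAP1S127A lay above all 4 without it, where 9.41% of all genes did so, and 3 lay below, where 10.5% did. F3 (log2 effect 3.42, SE 0.30, edgeR adjusted p 0.00202), Pdpn (2.20, SE 0.36, adjusted p 0.0122), Fstl3 (1.76, SE 0.19, adjusted p 0.00311) and Tpm1 (1.50, SE 0.20, adjusted p 0.00603) were called under all 9 other settings and with each of the 8 libraries left out as well. Thbs1 rose by 2.18 (SE 0.41, adjusted p 0.0191), Pthlh, which encodes parathyroid hormone-related protein, by 1.55 (SE 0.31, adjusted p 0.0245) and the caveolin gene Cav1 by 0.76 (SE 0.15, adjusted p 0.0218), although none of them was called in EY or Y against N. For Cav1 the levels were 35.4 and 43.3 CPM in N, 29.6 and 37.3 in E, 64.6 and 84.5 in Y, and 52.0 and 48.8 in EY. The members called lower were Serpinh1 (−1.07, SE 0.20, adjusted p 0.0194) and Fstl1, which rested on 27 and 7 UMIs in N, 39 and 5 in E, and 1, 1, 1 and 5 in the Y and EY libraries (adjusted p 0.0418). The call of Fstl1 was lost with any of the 8 libraries left out. Fibroblasts held 2299 CPM of Fstl1, against 0.41 in the pooled epithelial cells. In epithelial cells the 6 fibroblast markers summed to 725.3 to 1227 per 1000000 (N and E) and 28.3 to 804.8 (Y and EY). Nearly all of each sum was Dcn, and the other markers were at 2.79 or less. Col3a1, Col1a2 and Lum were lower in every Y and EY library than in N and E, while Col1a1 and Pdgfra overlapped. The part of fibroblast RNA in the result was not tested. Leaving out Y2 reduced the 15 calls to 6, E1 to 7, N1 or EY1 to 8 and E2 to 9, with 2.32% to 4.49% of all genes called in these fits.

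For E6-E7 the same model called 0 members by edgeR, against 0.406% of all genes, with 7 at an unadjusted p under 0.05 (11.5% of all genes) and 0 by DESeq2. The interaction, that is, the change of EY beyond the summed log2 changes of E and Y, called 0 of 46 by edgeR, against 0% of all genes, with 10 at an unadjusted p under 0.05 (11.5% of all genes). DESeq2 called 2, and 0.657% of all genes. These were Lgals1 (2.50, adjusted p 1.96e-10) and Ackr3 (−2.23, adjusted p 0.0303), for which edgeR gave 2.46 (SE 0.26, adjusted p 0.231) and −2.27 (SE 0.48, adjusted p 0.341). The larger rise of Lgals1 in EY than in E and Y together therefore passed the threshold in one tool and not in the other.

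Members were next compared between basal and suprabasal cells of the same libraries, gated by their keratins, with the library as a block and EY1 left out, as it held only 16 suprabasal cells. Of 44 members tested, 23 were higher in basal cells, where 18.9% of all genes were, and 2 were lower, where 16% were, so that 25 were called against 34.9%. The median was 0.56 for the members and 0.04 for all genes. Both members called lower in EY were higher in basal cells. Ackr3 was higher by 4.63 (SE 0.37, edgeR adjusted p 3.56e-06), and Serpinh1 by 2.31 (SE 0.10, adjusted p 6.83e-08). So were Cdh13 (2.78, SE 0.19, adjusted p 1.44e-06), Tnc (4.63, SE 0.44, adjusted p 1.36e-05) and Igfbp3 (3.46, SE 0.24, adjusted p 1.43e-06) by the same edgeR test. Serpinh1, for example, was at 86.9 CPM in basal and 15.6 in suprabasal cells of N1. Rising members could be higher in basal cells too. In the same cells of N1, Lgals1, called higher in EY, was at 23.2 and 7.23. Cav1, called higher with YAP1S127A, was at 43.2 and 7.99.

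F3 was opposite, with a log2 fold change of −1.50 (SE 0.23, edgeR adjusted p 0.000462). It was at 5.5 CPM in basal and 32.7 in suprabasal cells of N1, and at 70.0 and 108.6 in EY2. In EY1, which was outside this fit and had 16 suprabasal cells, F3 was at 211.6 and 79.1. Pdpn was higher in basal cells (1.37, SE 0.19, adjusted p 0.000227), at 9.8 in basal and 1.9 in suprabasal cells of N1 and 106.0 and 37.0 in EY2. Basal cells made up 79.7% and 84.6% of epithelial cells in N and 80.6% and 81.1% in EY. They made up 80.1% and 81.2% in E, but 73.4% and 67.3% in Y, so Y held fewer basal cells than the other groups. With basal cells alone, the log2 fold changes in EY against N were 2.93 for Pdpn, 4.58 for F3, 3.32 for Lgals1, −1.53 for Serpinh1 and −2.82 for Ackr3, and 12 members were called, with 20.6% of all genes.

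**Figure D3:**
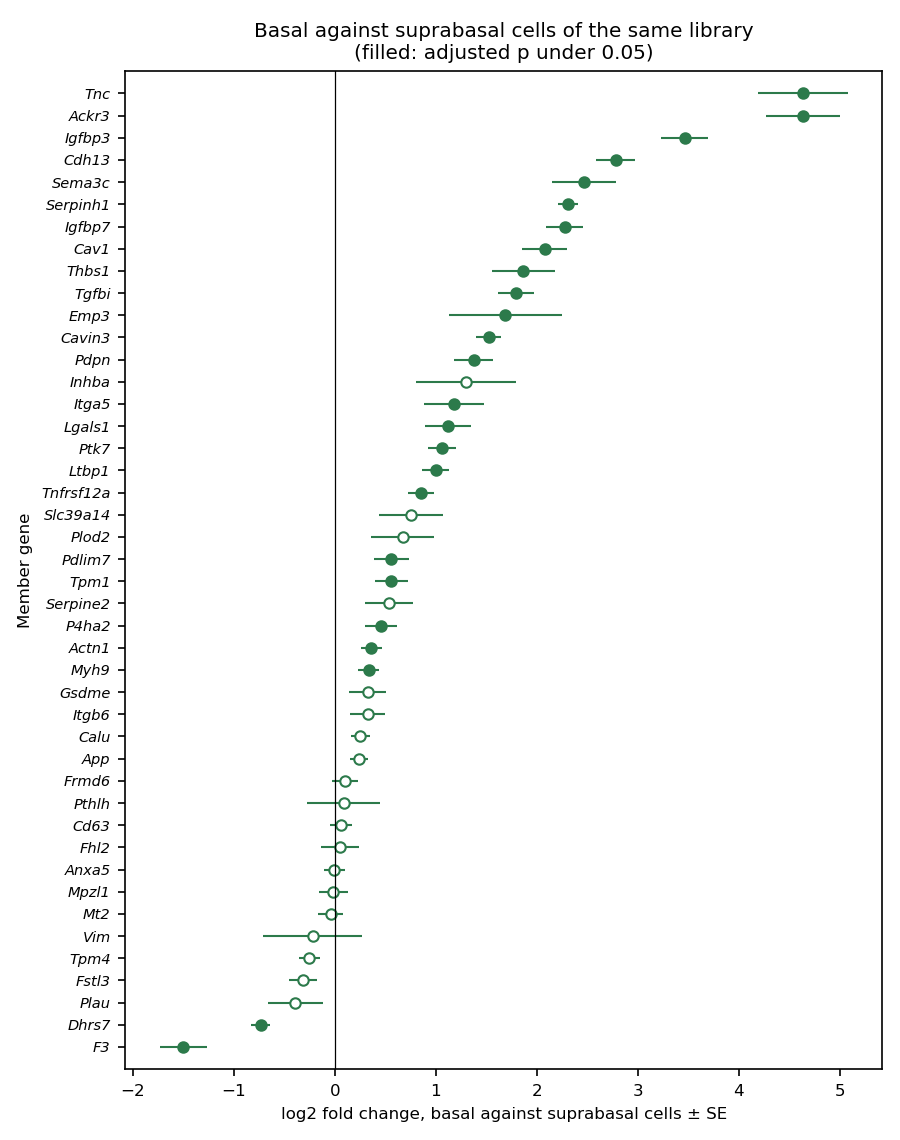
Log2 fold change with its SE of 44 members between basal and suprabasal cells of 7 libraries; filled points have an edgeR adjusted p under 0.05. Of the filled points 23 lie right of 0, and F3 and Dhrs7 lie left of it.

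Genes of the wider pathway were read from lists of their own. Of 7 EMT transcription factors, only Snai2 and Zeb2 were tested and neither was called in EY against N. Snai2, which basal keratinocytes express, was at 43.5 and 51.3 CPM in N and 46.3 and 25.2 in EY. Snai1, Twist1, Twist2, Zeb1 and Prrx1 were at 0.81 CPM or less in every library. Of 10 mesenchymal genes outside the members, such as Fn1, Col1a1 and Cdh2, 8 were tested and 0 were called, and Cdh2 was at 0.06 CPM or less. In this comparison 18.8% of all genes were called, and both lists were too short to tell 0 calls from that share.

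Of 16 epithelial junction genes, 6 were higher and 1 was lower in EY against N, with a median of 0.41 (edgeR), where 9.31% and 9.5% of all genes were higher and lower. Cdh1, the E-cadherin gene, was at 69.3 and 74.2 CPM in N and 102.7 and 101.3 in EY (0.51, SE 0.14, adjusted p 0.0448). The claudin genes Cldn1, Cldn4 and Cldn7, the scaffold gene Tjp1 and the polarity gene Crb3 were the other 5 that rose. Grhl2, a transcription factor that maintains epithelial identity, was lower, at 45.0 and 42.5 CPM in N and 28.8 and 23.4 in EY. Of 24 further partial EMT genes, 22 were tested, with a median log2 fold change of −0.39, against 0.32 for the members. Of these, 1 was higher (the EGF receptor ligand gene Ereg) and 2 were lower, the complement inhibitor gene Cd59a and the collagen protease gene Bmp1. Of 18 genes of TGF-beta and activin signalling, 0 were higher and 2 were lower, the coreceptor gene Tgfbr3 and the SMAD repressor gene Ski, where 9.5% of all genes were lower. The median of this list was −0.39 as well.

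Finally, member levels were set against those of other cells from the same libraries, 3817 myeloid, 5552 T/NK and 101 fibroblast cells. The fibroblasts numbered 2 to 28 per library, so their levels are pooled. More than 2 times the epithelial level was found for 14 of 47 members in myeloid cells and for 30 in fibroblasts, with 32 in either and 12 in both. The share of all genes above this limit was not computed, so these counts have no background. Of the 10 members called higher in EY against N, Inhba, Lgals1 and Cd63 were among the 14, and Inhba, Lgals1, Cd63 and Pdpn among the 30. The 6 that exceeded 2 times in neither class were F3, Fstl3, Actn1, Tpm4, Tnfrsf12a and Fhl2. F3 was at 44.2 CPM in epithelial, 47.6 in myeloid and 41.2 in fibroblast cells. Actn1 was at 50.7, 48.8 and 54.5. These epithelial levels were pooled over all 8 libraries, including Y and EY, where such members were higher. In N epithelial cells alone F3 was at 10.4 and 9.64 CPM and Actn1 at 23.8 and 21.2, below both other classes. The limit of 2 times was not applied to N cells alone. Of the members called higher with YAP1S127A but not in EY against N, Thbs1 was at 7.22 CPM in epithelial, 1027 in myeloid and 229.2 in fibroblast cells. Its levels in EY1 and EY2 were 12.6 and 12.5, and the myeloid markers summed to 197.6 and 19.4 there. The part of myeloid RNA in these levels was not tested. Pthlh was at 4.52 CPM in epithelial, 0.13 in myeloid and 32.1 in fibroblast cells.

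**Figure D4:**
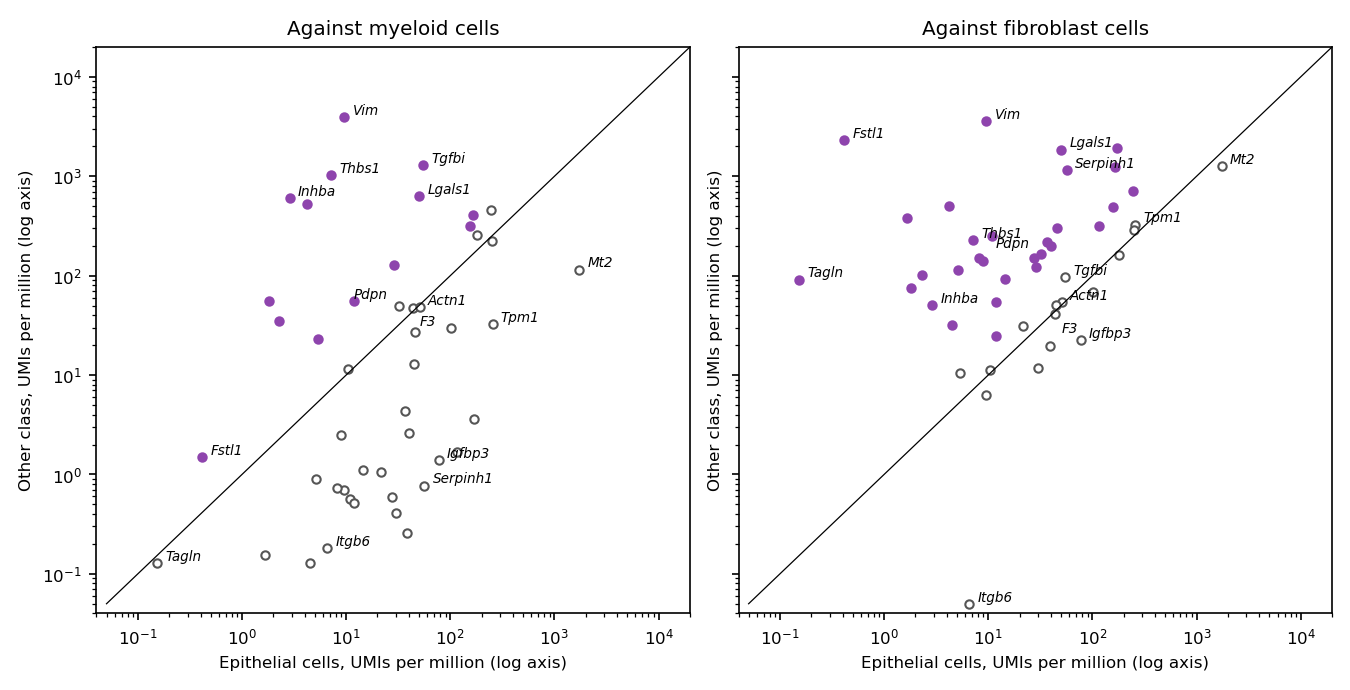
Pooled level of the 47 members in epithelial cells (horizontal) against myeloid cells (left panel) and fibroblast cells (right panel), in UMIs per 1000000 on log axes, with a line of equal levels; filled points exceed 2 times the epithelial level. A level of 0 is drawn at 0.05 (Itgb6 in fibroblasts). Vim lies furthest above the line in myeloid cells, at 3975 against 9.61.

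After thinning each cell to 2000 UMIs, epithelial cells held UMIs of a median of 4 members in all N and E libraries and of 5 in all Y and EY libraries. T/NK cells held a median of 4 in every library, so the number of members detected per cell did not by itself set epithelial cells apart. Leaving out N1 reduced the 12 calls of EY against N to 1 (Lgals1), leaving out N2 to 4 and leaving out EY2 to 3, whereas leaving out EY1 raised them to 19. The shares of all genes called were 0.0357%, 1.9%, 0.18% and 28.5% in these fits. Each of the 12 kept its direction under all alternatives.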

How the data were processed

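Sorted viable tongue cells of 8 libraries were profiled by 3' droplet sequencing. The deposited matrices hold raw UMI counts per gene and cell barcode, which the authors made with Cell Ranger on the mm10 genome, per the labels. Groups were taken from the labels, and each library was 1 replicate. The authors' methods give 2 mice per genotype, while the title of N2 holds more than 1 animal number.

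Cells were kept within the authors' limits (1000 to 5500 genes, no more than 30000 UMIs and 7% mitochondrial UMIs), and no doublet caller was run. Median UMIs per epithelial cell ran from 12575 to 23570. At most 19 cell barcodes were shared by 2 libraries. Median keratin share was 1.87 to 2.23% in epithelial cells and 0.0268 to 0.149% in cells with Ptprc and T/NK UMIs. Of the UMIs of Krt5, Krt14, Krt15, Krt13 and Krt4, basal cells held at least 80% as Krt5, Krt14 and Krt15, and suprabasal cells at least 50% as Krt13 and Krt4. The other classes had keratins under 0.5%. Myeloid cells had Ptprc, at least 0.3% of UMIs from myeloid markers and no Cd3d, Cd3e, Cd3g or Nkg7. T/NK cells had Ptprc, at least 2 UMIs of those genes and under 0.1% from myeloid markers. Fibroblasts had no Ptprc and at least 0.5% of UMIs from Col1a1, Col1a2, Col3a1, Dcn and Lum.

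UMIs were summed per library and tested in R 4.3.3 with edgeR 4.0.16 (low-count filter, TMM factors from 0.953 to 1.04, quasi-likelihood test). The SE was derived from each log2 fold change and its F statistic. DESeq2 1.42.0 was an alternative. On simulated counts, genes changed by 1 and 2 on the log2 scale were recovered in 11% and 54% of cases for EY against N, 1% and 53% for Y against N, 9% and 67% for E against N, 43% and 77% for YAP1S127A and 43% and 80% for E6-E7. The members, lists and naming rule were chosen with earlier results of these data known. The rule named the 10 largest rises and 6 largest falls in EY against N, and 4 rises and 3 falls in each other pair, among called members at 20 CPM or more in 1 group, with 16 fixed genes. Fstl3, Ackr3, Tpm1, Cdh13, Sema3c, Calu, Pthlh, Fstl1, Serpine2 and the named genes of the other lists fell outside it and were chosen after their values were seen. Gene positions are from GENCODE vM21 (GRCm38), and figures were drawn with matplotlib.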

Additional observations from a re-analysis of the deposited data

How the results depend on the processing

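No paired analysis was possible because the labels give no replicate numbers shared between groups. The counts of called members depended on the settings, and so did the share of all genes called, given in parentheses. Where an arm was left with 1 library, that library was assumed to vary like the other groups. EY against N (12, 18.8%) gave 24 without a low-count filter (19.7%), 25 when cells were not limited upward in genes and UMIs (no upper limits, 40.8%), and 1 without N1 (0.0357%) to 19 without EY1 (28.5%). Y against N (2, 0.457%) gave 10 with DESeq2 (3.37%), 18 without the filter (5.56%), 5 with keratins of at least 2% (1.58%), 10 without upper limits (10.2%), 1 at a minimum of 200 genes (0.374%), and 0 to 2 with a library left out. E against N (0, 0.243%) gave 1 with DESeq2 (0.966%) and 3 without the filter (1.69%). EY against Y (1, 0.0443%) gave 8 with DESeq2 (6.49%), 13 without the filter (9.74%), 8 with keratins of at least 2% (8.34%), 2 at 200 genes (1.2%), 2 without cells holding UMIs of other types (1.24%), 9 in thinned cells (7.29%) and 0 to 10 with a library left out. EY against E (14, 16.4%) gave 22 without the filter (18%) and 1 to 19 with a library left out. The interaction (0, 0%) gave 2 with DESeq2 (0.657%), 8 without the filter (3.09%), 2 in thinned cells (0.207%) and 0 to 2 with a library left out. The YAP1S127A effect (15, 8.98%) gave 25 without the filter (14.9%), 27 without upper limits (41.4%) and 6 to 16 with a library left out. DESeq2 called 20.4% of all genes there. The E6-E7 effect (0, 0.406%) gave 5 without the filter (3.52%). Basal against suprabasal (25, 34.9%) gave 16 in thinned cells (19.7%). It rested on 7 libraries, since EY1 had too few suprabasal cells, so leaving out EY1 gave no further value. The cause was not tested, except that leaving out a library leaves fewer samples and that thinned sums hold fewer UMIs.

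Of single members, none that was called in the main fit changed direction. Some differences that were not called there did, in log2 fold change, and not all of them were small. In E against N, Lgals1 was 0.0029 without cells holding UMIs of other types (−0.29 to 0.098 with a library left out), Serpinh1 0.014 and Mt2 0.029 in the same cells, Actn1 −0.20 and Igfbp3 0.098 without upper limits, and Fhl2 0.15 in thinned cells. Itga5 was 0.0032 without the filter, 0.016 with keratins of at least 2%, 0.11 without upper limits, 0.11 without cells holding UMIs of other types, 0.018 without gland-like cells and 0.11 in basal cells. In Y against N, Fhl2 was −0.56 with keratins of at least 2% and −0.089 without cells holding UMIs of other types, and Tgfbi −0.30 without upper limits and −0.21 without those cells. In EY against N, Itga5 was −0.086 with keratins of at least 2% and −0.055 without those cells, and Plau 0.16 without upper limits and 0.040 in basal cells. With a library left out, E against N ranged from −0.072 to 0.78 for Pdpn, −0.10 to 0.22 for Actn1, −0.82 to 0.32 for Fhl2, −0.47 to 0.28 for Tpm4, −0.62 to 0.037 for Tnfrsf12a, −0.34 to 0.23 for Itga5, −2.46 to 0.045 for Thbs1, −0.38 to 0.34 for Igfbp3 and −0.45 to 0.49 for Mt2. Y against N ranged from −0.16 to 0.22 for Fhl2 and −0.20 to 0.50 for Tgfbi. EY against N ranged from −0.17 to 0.15 for Itga5, −2.65 to 0.18 for Tnc, −0.38 to 0.15 for Plau, −2.12 to 0.48 for Igfbp3 and −0.60 to 0.32 for Mt2. Depth limited EY1 most, where Inhba rested on 25 UMIs and Ackr3 on 8.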
